A study of Mus musculus with 20 samples.

Results

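Granulocytic and monocytic myeloid-derived suppressor cells (gMDSC and mMDSC) were compared in tumours of mice dosed with GNE-781, a bromodomain inhibitor of CBP and EP300 (CBPi below). The libraries were chosen by their labels, as those with the treatment CBPi-781, which gave 10 of the 20 libraries of the series, 5 of gMDSC and 5 of mMDSC. The other 10 libraries, 5 of each cell type from mice given the vehicle MCT, are used only to say which differences between the lineages held under the inhibitor. All 4 groups came from female SCID.beige mice aged 6 to 8 weeks, a strain that lacks mature T and B cells and has impaired NK cells. Tumour cells had been implanted under the skin. They were CT26, a colon carcinoma of the mouse, or MDA.MB.231-X1.1, whose parent line came from a human breast tumour, and the labels tie no library to a line or to a mouse. GNE-781 was given by oral gavage at 25 mg/kg BID for 7 days before the tumours were digested. Cells were sorted as CD45+CD11b+Ly6C+F4/80-, and Ly6G divided them into gMDSC (Ly6G+) and mMDSC (Ly6G-). As the labels do not state separate mice, p-values measure the spread between these samples, which may be technical in part.

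Myeloid-derived suppressor cells are neutrophils and monocytes that accumulate in tumours and restrain T cells. The granulocytic kind shares its surface markers and granule proteins with neutrophils, whose programme is built by transcription factors of the C/EBP family, and the monocytic kind shares its markers with inflammatory monocytes, which depend on IRF8 and KLF4 and can become macrophages. CBP and EP300 are histone acetyltransferases that act at enhancers, and their bromodomains bind acetylated lysine.

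The 10 treated libraries held between 19.5 and 26.6 mega counts over genes (1 mega count is 1e6 counts) and the vehicle libraries between 12.4 and 23.3 mega counts. Pearson correlations of log2 CPM between libraries of a group were 0.968 to 0.987 in treated mMDSC, 0.964 to 0.983 in treated gMDSC, 0.955 to 0.985 in vehicle mMDSC and 0.901 to 0.981 in vehicle gMDSC. The leading principal component, with 44.5% of the variance, separated gMDSC from mMDSC in all 20 libraries. On it, treated gMDSC libraries 6 and 7 (59.0 and 49.3) stood apart from libraries 8, 9 and 10 (29.7 to 34.5), so leading counts are also given without those 2 libraries. In the vehicle arm, gMDSC library 3 stood apart on the next component.

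The sort markers were checked in the treated libraries. Levels are given as CPM, the counts scaled to an equal library total with factors from the trimmed mean of M values (TMM). After a level, ± is the SD over 5 libraries, and after a log2 difference of gMDSC against mMDSC, or an interaction, it is the SE of the fit. A gene is called higher or lower only at an adjusted p under 0.05 in edgeR's quasi-likelihood test. Ly6g, the gene of the marker that divides the gates, was low in RNA: it reached 2.14, 0.916, 0.753, 0.532 and 0.529 CPM in gMDSC libraries 6 to 10, and in mMDSC it had 2 counts in all over the 5 libraries. The groups did not overlap for Ly6g, and the difference was called by edgeR's quasi-likelihood test (adjusted p = 2.7e-04). Adgre1, the gene of F4/80 that the gate excludes, was at 538 ± 92.5 CPM in mMDSC against 807 ± 161 in gMDSC. It was called higher in gMDSC in every edgeR fit with 1 library left out (log2 difference 0.57 to 0.74, adjusted p up to 0.022). Summed over 6 macrophage markers (Adgre1, C1qa, C1qb, C1qc, Mrc1 and Apoe), the level was 15592 to 30576 CPM in treated gMDSC and 18263 to 23029 CPM in treated mMDSC, with the lowest gMDSC value in library 6. The same sums over 8 neutrophil markers were 7882 to 14550 CPM in treated gMDSC and 211 to 298 CPM in treated mMDSC, and over 7 monocyte markers 1951 to 2654 and 4273 to 5534 CPM. With vehicle, the macrophage sums were 32457 to 75065 CPM in gMDSC and 21100 to 30343 CPM in mMDSC. The neutrophil sums there were 9213 to 35127 and 323 to 373 CPM. The part of these sums in differences between the arms was not tested. By these sums, neutrophil markers were higher in gMDSC and monocyte markers in mMDSC. Of the monocyte markers, Csf1r was not called and Cx3cr1 was higher in gMDSC, as given below. Macrophage transcripts were present in both gates, and in treated gMDSC their sum was above the neutrophil sum. In gMDSC libraries 6 and 9, which had the lowest and highest macrophage sum, most of it was Apoe, whose values are given below. Sums over unlike genes do not rank cell types by number. In bulk RNA, fewer cells of a type and less RNA per cell cannot be told apart. The targets of the drug were expressed in both populations, Crebbp (CBP) at 108 ± 19.6 CPM in mMDSC against 166 ± 27.9 in gMDSC and Ep300 at 117 ± 21.4 CPM in mMDSC against 175 ± 28.8 in gMDSC, and both were higher in gMDSC (log2 difference 0.67, adjusted p = 0.0044, and 0.64, adjusted p = 0.0061, edgeR). The Ep300 call was lost without gMDSC libraries 6 and 7 (adjusted p = 0.0505), and the Crebbp call in the fit of all 20 libraries (adjusted p = 0.0513).

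Under CBPi the lineages differed in a large share of the genes measured. Of 11895 genes tested, 2396 (20.1%) were higher in gMDSC and 2270 (19.1%) were lower at an adjusted p under 0.05, which together is 39.2% of the genes. For 3562 genes (29.9%) all 5 libraries of one cell type lay above all 5 of the other. The largest differences were on the granulocytic side: 495 of the called genes were at least 4-fold higher in gMDSC and 113 were at least 4-fold lower. The median log2 difference over all genes tested was -0.05, so a list's median below can be read against a value near 0. A list's counts under CBPi can be read against the 20.1% higher and 19.1% lower of all genes.

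Of the 10 genes that led the granulocytic side, Cxcr2, G0s2, Asprv1 and Mrgpra2b are on the neutrophil identity list below. Cxcr2 (chromosome 1, 74153994 to 74161246, GRCm38), the receptor that draws neutrophils to ELR-type CXC chemokines, was at 1.33, 0.947, 3.41, 0.645 and 2.42 CPM in mMDSC libraries 6 to 10 and at 1066, 932, 659, 697 and 726 CPM in gMDSC libraries 6 to 10. No mMDSC library came near the lowest gMDSC library. The log2 difference was 8.92 ± 0.42 (SE, n = 5 per group, adjusted p = 1.1e-08). G0s2 (chromosome 1, 193272160 to 193273188), an inhibitor of the lipase ATGL, was at 3.72, 1.71, 5.59, 2.76 and 2.61 CPM in mMDSC and 3593, 2227, 1505, 1709 and 1546 CPM in gMDSC, with a log2 difference of 9.39 ± 0.41 (SE, n = 5 per group, adjusted p = 4.1e-09). Its highest gMDSC value was in library 6, and all 5 gMDSC libraries were above every mMDSC library. Csf3r (chromosome 4, 126023441 to 126044975), the receptor for the granulocyte growth factor G-CSF and not among the 10 leading genes, was at 147, 214, 163, 188 and 201 CPM in mMDSC and 3906, 4056, 2527, 2619 and 3006 CPM in gMDSC. This gene was measurable in mMDSC too, and the log2 difference was 4.19 ± 0.18 (SE, n = 5 per group, adjusted p = 4.1e-09). The fitted differences of the 10 leading genes ran from Mrgpra2b, a Mas-related G protein-coupled receptor (log2 difference 9.42 ± 0.34), to Myo1d, an unconventional myosin (log2 difference 8.33 ± 0.46), and included Asprv1, a retroviral-like aspartic protease (log2 difference 9.27 ± 0.37), Cstdc4, a stefin-type inhibitor of cysteine proteases (log2 difference 8.97 ± 0.57), and Olfm4, a glycoprotein of a neutrophil subset's granules (log2 difference 8.74 ± 0.45). Mrgpra2b, Myo1d and Olfm4 had 10, 11 and 14 counts in all in mMDSC, so the size of their difference depends on the prior count. Prok2 and Csta3 had 3 and 5 counts in all there, and the gene with Entrez ID 404236 had 5, and their sizes are not given.

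**Figure D1:**
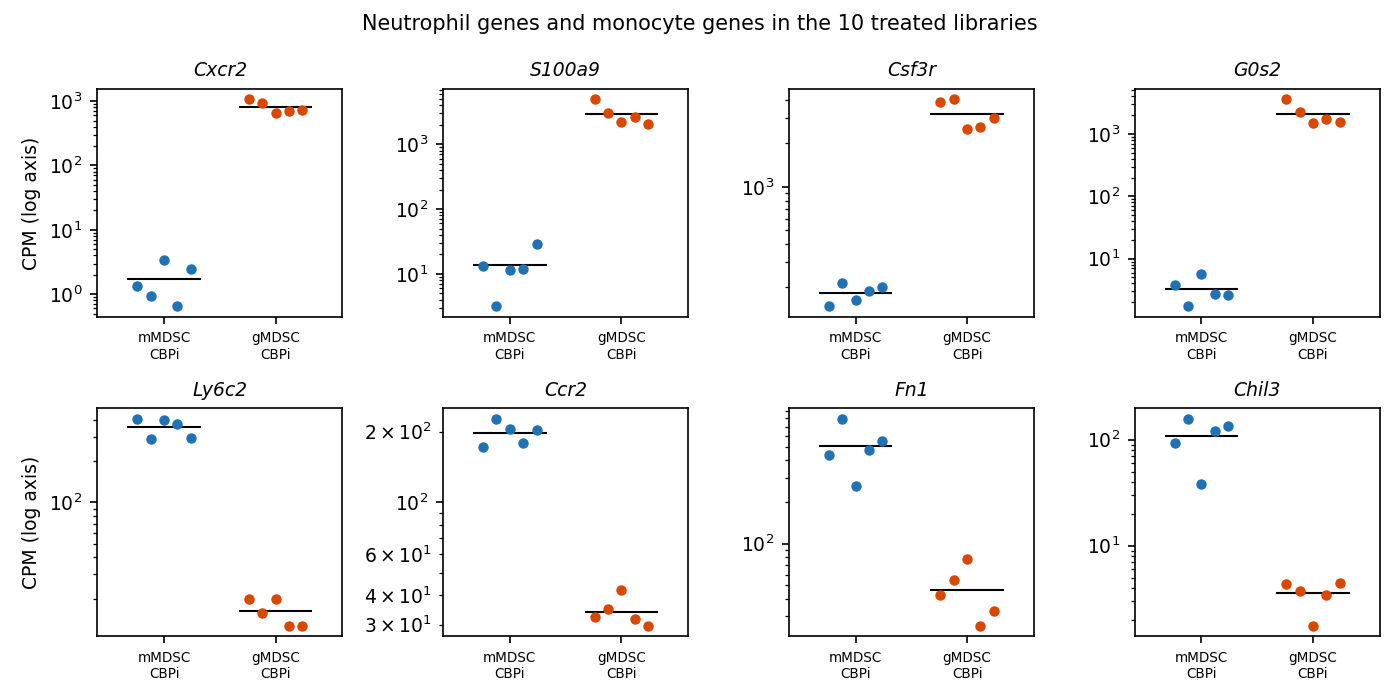
Level of 8 genes in the 10 treated libraries, in CPM on a log axis, with 1 point per library in the order of its number and a bar at the mean of 5. Cxcr2, S100a9, Csf3r and G0s2 are higher in every gMDSC library than in any mMDSC library, and Ly6c2, Ccr2, Fn1 and Chil3 are lower in every gMDSC library.

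The neutrophil identity list, 28 genes chosen from knowledge of the lineage with earlier results of these data known, was almost wholly granulocytic. It holds leading genes named above, so its counts describe the difference and are no separate check of it. Under CBPi 26 of 28 members were higher in gMDSC and 1 was lower, with a median log2 difference of 4.44. With vehicle the counts were also 26 and 1 (median 4.48), and 27 members held their direction. Leaving out gMDSC libraries 6 and 7 left the counts at 26 and 1. S100a8 and S100a9, the subunits of the calcium-binding protein calprotectin, were at 16.3 ± 10.1 CPM in mMDSC against 1780 ± 676 in gMDSC and at 13.7 ± 9.40 CPM in mMDSC against 2978 ± 1177 in gMDSC. Their log2 differences were 6.82 and 7.81 (adjusted p = 2.6e-07 for both, edgeR). Hdc, which makes histamine, was at 40.1 ± 4.60 CPM in mMDSC against 4191 ± 1721 in gMDSC (log2 difference 6.76), and Trem1, an amplifier of inflammatory signals, at 39.4 ± 14.5 CPM in mMDSC against 831 ± 215 in gMDSC (log2 difference 4.45 ± 0.27). Cd177, a neutrophil surface glycoprotein, was the exception: it was at 129.9 ± 45.2 CPM in mMDSC against 59.8 ± 40.6 in gMDSC and so lower in gMDSC (log2 difference -1.08, adjusted p = 0.039), and it was lower with vehicle too (log2 difference -2.33). The Cd177 call under CBPi was lost in 8 of 10 fits with 1 library left out, and with RLE scaling or DESeq2 (adjusted p = 0.0577 to 0.0727).

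Granule genes went in both directions. Of 17 secondary and tertiary granule genes tested, 9 were higher in gMDSC and 5 were lower, beside 20.1% and 19.1% of all genes. Lcn2, the siderophore-binding lipocalin 2, was at 5.67 ± 4.66 CPM in mMDSC against 339 ± 111 in gMDSC (log2 difference 5.94, adjusted p = 6.5e-07). Mmp9, the gelatinase of tertiary granules, was at 13.2, 18.7, 8.65, 11.5 and 11.9 CPM in mMDSC and 1273, 1120, 934, 651 and 912 CPM in gMDSC (log2 difference 6.31 ± 0.26, adjusted p = 3.4e-09). The azurophil genes, which are made early in granulocyte development, leaned the other way under CBPi. There 5 of 8 tested members were lower in gMDSC and 2 higher (median log2 difference -1.44). With vehicle 2 of 8 tested were lower and 2 higher (median 0.30). Those were not the same 8 genes, as Elane was tested only under CBPi, so the medians cannot be compared directly. In the list 4 members held from vehicle and none was called in the interaction, so a change between the arms is not shown. Mpo (myeloperoxidase) was at 1.61, 1.71, 0.568, 1.47 and 17.8 CPM in mMDSC and 0.130, 0.108, 0.401, 1.06 and 0.385 CPM in gMDSC. Library 10 was far above the other mMDSC libraries, and without it the Mpo difference no longer passed the test (adjusted p = 0.11), nor did it by limma-voom with all libraries (adjusted p = 0.139). Elane (neutrophil elastase) was at 1.61, 1.93, 1.44, 1.94 and 4.04 CPM in mMDSC and had 1 count in all in gMDSC. It was too low to be tested with vehicle. Srgn, the proteoglycan core of the granules, was at 1029 ± 139.8 CPM in mMDSC against 4607 ± 1100 in gMDSC and higher in gMDSC (log2 difference 2.22 ± 0.16).

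The 10 genes that led the monocytic side included both Ly6c genes and 3 type I interferon genes, and none was on the monocyte identity list below. Ly6c2 (chromosome 15, 75108161 to 75112066), which encodes the Ly6C antigen together with its near-identical neighbour Ly6c1, was at 408, 292, 401, 374 and 297 CPM in mMDSC and 19.9, 15.7, 19.7, 12.7 and 12.7 CPM in gMDSC. Both gates are Ly6C+, yet every gMDSC library was below every mMDSC library, and the log2 difference was -4.40 ± 0.19 (SE, n = 5 per group, adjusted p = 3.4e-09). Ly6c1 gave -4.35, though reads shared between such copies make their separate values uncertain. Chil3 (chromosome 3, 106147554 to 106167564), the chitinase-like protein Ym1, was at 92.8, 158, 38.2, 121 and 134 CPM in mMDSC and 4.34, 3.72, 1.76, 3.40 and 4.47 CPM in gMDSC (log2 difference -4.89 ± 0.38, adjusted p = 6.0e-07). S100a4, a calcium-binding protein linked to cell motility, was at 62.8 ± 18.4 CPM in mMDSC against 3.11 ± 1.55 in gMDSC (log2 difference -4.28 ± 0.33), and Plcb1, a phospholipase C, at 16.7 ± 6.76 CPM in mMDSC against 0.274 ± 0.275 in gMDSC (log2 difference -5.84 ± 0.60). Ifna1, Ifna2 and Ifna4, which encode type I interferons, were also among the 10 leading genes (log2 differences -4.51, -3.69 and -4.09), and so was Gm15056 (log2 difference -4.13 ± 0.73). Ifna4 was at 86.9, 75.4, 91.0, 120.0 and 84.9 CPM in mMDSC and 4.14, 3.67, 7.83, 5.59 and 4.66 CPM in gMDSC.

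Within the monocyte identity list the separation was partial. Of 28 members, 15 were lower in gMDSC, 5 were higher and 8 were not called (median log2 difference -0.58). With vehicle, 14 were lower and 5 higher. Ccr2, the receptor for the monocyte chemokine CCL2, was at 173, 227, 206, 178 and 204 CPM in mMDSC and 32.2, 35.1, 42.1, 31.6 and 29.7 CPM in gMDSC (log2 difference -2.48 ± 0.14, adjusted p = 3.8e-08). Fn1 (fibronectin) was at 504 ± 196 CPM in mMDSC against 46.6 ± 20.3 in gMDSC (log2 difference -3.38 ± 0.34), Ms4a4c, a tetraspan membrane protein, at 1290 ± 112 CPM in mMDSC against 311 ± 46.5 in gMDSC (log2 difference -1.999 ± 0.13), and Lyz2 (lysozyme M) at 4499 ± 670.1 CPM in mMDSC against 1555 ± 265 in gMDSC (log2 difference -1.48 ± 0.15). Csf1r, the receptor for the macrophage growth factor M-CSF, was at 2106 ± 462 CPM in mMDSC against 1717 ± 255 in gMDSC and was not called (log2 difference -0.24 ± 0.17, adjusted p = 0.28). Cd14, the endotoxin co-receptor, and Cx3cr1, the fractalkine receptor, were higher in gMDSC (log2 differences 1.71 and 0.81). Leaving out gMDSC libraries 6 and 7 gave 13 lower and 6 higher.

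Lineage transcription factors were called in both directions. Of 42, 21 were higher in gMDSC under CBPi, 9 were lower and 12 were not called, where all genes gave 20.1% higher and 19.1% lower, and 24 of them held from vehicle. Cebpb and Cebpd, C/EBP factors of granulocytes under stress, were at 1383 ± 256 CPM in mMDSC against 4532 ± 1365 in gMDSC and at 84.5 ± 9.99 CPM in mMDSC against 290.1 ± 40.7 in gMDSC (log2 differences 1.76 and 1.83, adjusted p = 1.2e-05 and 3.4e-07). Cebpe, a factor of the late granulocyte precursor, was low, at 0.909 ± 0.484 CPM in mMDSC against 2.61 ± 0.323 in gMDSC (log2 difference 1.57, adjusted p = 0.016), and Gfi1, a repressor of the monocyte programme, was at 0.499 ± 0.474 CPM in mMDSC against 1.30 ± 1.05 in gMDSC and not called (adjusted p = 0.25). Fosl2, an AP-1 subunit, was at 34.9 ± 6.86 CPM in mMDSC against 195 ± 83.5 in gMDSC (log2 difference 2.53 ± 0.26). On the other side, Irf8 was at 324 ± 35.7 CPM in mMDSC against 197 ± 40.6 in gMDSC (log2 difference -0.66, adjusted p = 0.0046) and Klf4 at 119 ± 25.9 CPM in mMDSC against 53.0 ± 25.9 in gMDSC (log2 difference -1.12 ± 0.27). Spi1, which encodes PU.1, was at 688 ± 52.4 CPM in mMDSC against 799 ± 73.0 in gMDSC and was not called by edgeR with TMM scaling (log2 difference 0.27 ± 0.11, adjusted p = 0.062), but was called with RLE scaling, DESeq2 and limma-voom (adjusted p = 0.0453, 0.0121 and 0.0498).

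Receptors for chemoattractants were mostly granulocytic and the ligands were mixed. Of 23 receptors tested, 14 were higher in gMDSC and 4 lower, beside 20.1% and 19.1% of all genes, and 17 held from vehicle. Besides Cxcr2 these included Fpr1, which senses formylated bacterial peptides (11.5 ± 5.92 CPM in mMDSC against 239 ± 55.7 in gMDSC, log2 difference 4.43), C5ar1, the receptor for complement C5a (293 ± 40.5 CPM in mMDSC against 1718 ± 415 in gMDSC, log2 difference 2.60), and Ccr1, a receptor for CCL3 and related ligands (282 ± 18.7 CPM in mMDSC against 1395 ± 328 in gMDSC, log2 difference 2.36). Of 24 ligands, 5 were higher and 9 lower in gMDSC. Cxcl2 and Cxcl3, both ligands of CXCR2, were at 1283 ± 234 CPM in mMDSC against 7039 ± 2258 in gMDSC and at 12.1 ± 3.95 CPM in mMDSC against 777 ± 436 in gMDSC (log2 differences 2.51 and 6.06). Ccl2, the ligand of CCR2, was at 462 ± 93.6 CPM in mMDSC against 125 ± 31.8 in gMDSC (log2 difference -1.83 ± 0.19), Ccl5, a chemokine that attracts T cells and monocytes, at 299.7 ± 145 CPM in mMDSC against 77.6 ± 15.2 in gMDSC (log2 difference -1.89 ± 0.28), and Ccl24, an eotaxin, at 121 ± 21.0 CPM in mMDSC against 10.7 ± 2.83 in gMDSC (log2 difference -3.45 ± 0.20).

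Inflammatory signalling leaned to gMDSC, where all genes gave 20.1% higher and 19.1% lower. In the IL-1 family 10 of 18 tested members were higher and 1 lower, all 10 of the higher members called with vehicle as well. Il1b, the main secreted IL-1, was at 3506, 4006, 6329, 5420 and 4813 CPM in mMDSC and 30981, 26959, 21492, 24738 and 24818 CPM in gMDSC, with a log2 difference of 2.48 ± 0.17 (SE, n = 5 per group, adjusted p = 1.7e-07). Every gMDSC library was above every mMDSC library. Il1r2, the decoy receptor for IL-1, was at 199 ± 21.0 CPM in mMDSC against 4218 ± 591 in gMDSC (log2 difference 4.46 ± 0.15), and Il1f9, which encodes IL-36 gamma, at 0.537 ± 0.413 CPM in mMDSC against 148 ± 46.3 in gMDSC (log2 difference 8.18 ± 0.49). Of 30 NF-kB genes, 20 were higher and 1 lower, and of 23 STAT3 targets 15 and 3. Il6, itself a STAT3-activating cytokine, ran the other way, at 191 ± 38.5 CPM in mMDSC against 15.5 ± 4.64 in gMDSC (log2 difference -3.57, adjusted p = 1.5e-07). Among eicosanoid genes 7 of 18 were higher and 1 lower; Ptgs2, the inducible cyclooxygenase, was at 928 ± 253 CPM in mMDSC against 4939 ± 1213 in gMDSC (log2 difference 2.47 ± 0.23). Of 30 type I interferon-stimulated genes 20 were higher in gMDSC and 3 lower, while the interferon genes named above were lower there. Among the higher, Rsad2 (viperin) was at 1002 ± 162 CPM in mMDSC against 4762 ± 1904 in gMDSC (log2 difference 2.30 ± 0.24) and, among the lower, Mx1, an antiviral GTPase, at 203 ± 25.3 CPM in mMDSC against 54.0 ± 4.08 in gMDSC (log2 difference -1.85 ± 0.12).

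Suppressive effectors here are genes linked to the restraint of T cells, and the list also holds S100a8 and Hcar2. Of 22 members tested, 12 were higher and 5 lower in gMDSC, beside 20.1% higher and 19.1% lower of all genes. Cd274, which encodes PD-L1, was at 46.3, 63.3, 66.2, 56.9 and 49.3 CPM in mMDSC and 489, 404, 298, 202 and 269 CPM in gMDSC (log2 difference 2.61 ± 0.22, adjusted p = 1.3e-06). Entpd1 and Nt5e, the ectoenzymes CD39 and CD73 that turn ATP into adenosine, were at 139 ± 19.9 CPM in mMDSC against 716 ± 282 in gMDSC and at 3.75 ± 2.07 CPM in mMDSC against 37.3 ± 18.2 in gMDSC (log2 differences 2.42 and 3.36). Hcar2, a receptor for niacin and ketone bodies, was at 66.4 ± 16.5 CPM in mMDSC against 4922 ± 1976 in gMDSC (log2 difference 6.26 ± 0.30). Arg1 (arginase 1), the classic arginine-depleting enzyme, was at 71.1, 36.1, 23.6, 24.5 and 26.7 CPM in mMDSC and 3.56, 4.58, 1.71, 3.03 and 0.865 CPM in gMDSC. Its mMDSC value in library 6 lay apart from the other mMDSC libraries, and the groups did not overlap (log2 difference -3.68 ± 0.44, adjusted p = 2.7e-05).

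The next question was which of these differences are those of the vehicle arm. With vehicle, 11576 genes were tested, 1579 (13.6%) were higher in gMDSC and 935 (8.08%) were lower. Of those 2514 genes, 2045 were called in the same direction under CBPi, which is 81.3% of the vehicle calls and 43.8% of the 4666 CBPi calls. Held differences made up 83.5% of the higher and 77.8% of the lower vehicle calls, and 55.0% of the higher and 32.0% of the lower CBPi calls. The 2 comparisons share no library. Across the 11346 genes tested in both, the log2 differences correlated with r = 0.811 (Spearman rho 0.698), as a description, since genes are not independent. The vehicle counts depend on vehicle gMDSC library 3: without it 1749 genes were higher and 1521 lower with vehicle, and 2567 differences held. The share of vehicle calls that held was then 78.5%. The fit of all 20 libraries called 1851 higher and 1519 lower with vehicle, and 69.9% of its vehicle calls held. Over the 2045 genes the median size was 1.25 on the log2 scale with vehicle and 1.19 under CBPi. Without gMDSC libraries 6 and 7, 1810 differences held (72.0% of the vehicle calls), and 1760 genes were higher and 1509 lower under CBPi.

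**Figure D2:**
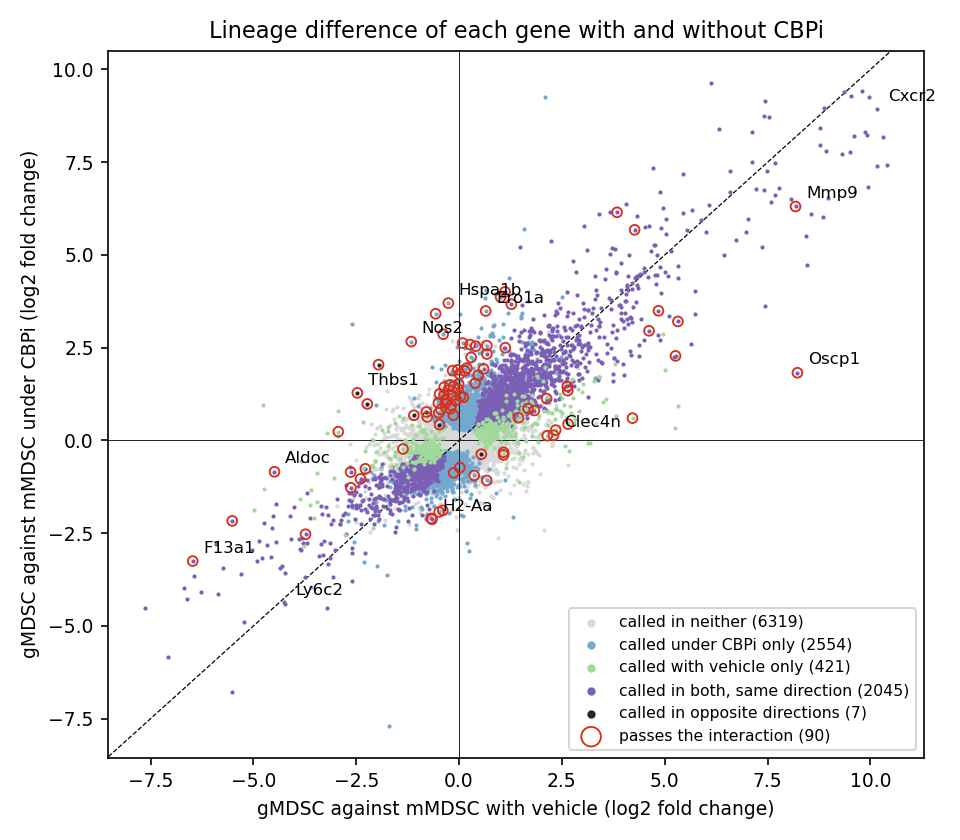
Log2 difference of gMDSC against mMDSC for each of 11346 genes, with vehicle on the x axis and under CBPi on the y axis, coloured by the fits in which the gene was called and ringed where the interaction was called. Most called genes lie near the dashed line of equal difference, and the 2045 held genes fill the upper right and lower left.

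A further 2554 genes were called under CBPi and were tested but not called with vehicle, and 2233 of them had the same sign there. In the same way, 357 of the 421 genes called only with vehicle had the same sign under CBPi. The libraries were less spread under CBPi: the median standard error of a log2 difference was 0.228 against 0.304 with vehicle. So whether a difference itself changed was tested by the interaction, the lineage difference under CBPi minus that with vehicle. Of 12688 genes tested in all 20 libraries, 92 (0.725%) passed, 63 with a higher and 29 with a lower gMDSC to mMDSC ratio under CBPi, and 1454 had an unadjusted p under 0.05. Of the 92, 29 were differences that held in direction with another size, 45 were called under CBPi only, 10 with vehicle only, 7 in opposite directions and 1 in neither. Without gMDSC libraries 6 and 7 the count was 18 higher and 18 lower. The interaction calls below that were lost when gMDSC was represented by the other 3 treated libraries are therefore named.

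**Figure D3:**
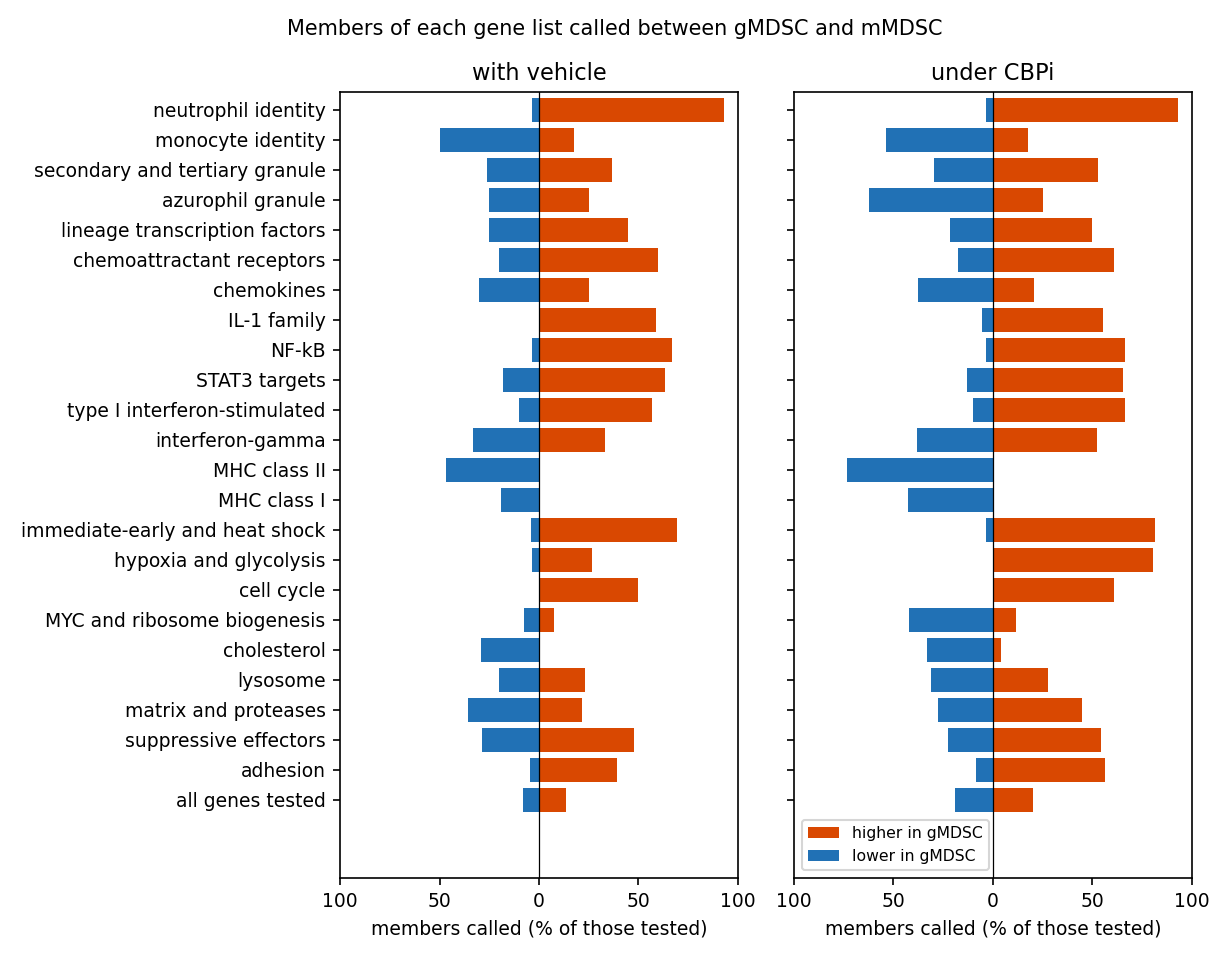
Share of the tested members of 23 gene lists, and of all genes, called higher (right) or lower (left) in gMDSC than in mMDSC, with vehicle and under CBPi. The neutrophil identity bars are alike in both panels, while the hypoxia and glycolysis bar is 25 of 31 members under CBPi against 8 of 30 with vehicle.

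Hypoxia and glycolysis was the list with the most members called in the interaction. Under CBPi 25 of 31 members were higher in gMDSC and none was lower by edgeR's adjusted p (1 at an unadjusted p under 0.05, 1 by DESeq2 and 1 by limma-voom), with a median log2 difference of 1.15. With vehicle 8 of 30 tested were higher and 1 was lower (median 0.06). The interaction was called for 10 members, all with a higher ratio under CBPi, against 0.725% of all genes. The list was chosen with earlier results of these data known, so the absence of lower members depends on that choice. It holds Aldoa but not Aldoc, another aldolase, which was lower in gMDSC under CBPi. With 1 library left out, edgeR gave Aldoc a log2 difference of -1.02 to -0.76 (adjusted p up to 0.018). Without gMDSC libraries 6 and 7, 23 members were higher under CBPi (median 0.76) and 4 passed the interaction, namely Ero1a, Pfkfb3, P4ha1 and Ndrg1. Of the treated gMDSC libraries, library 6 also had the highest sum of neutrophil markers and the lowest sum of macrophage markers, and their part in the result was not tested.

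The windows upstream of 3 of these members, and of the heat shock gene Hspa1b described below, are shown because their genes moved together. Each is the 250 bases before the annotated start in RefSeq (GRCm38.p6), read 5′ to 3′ on the gene's strand (for Pfkfb3 and P4ha1 that start lies inside the gene's annotated span), with matches to the hypoxia response element core ACGTG, or its reverse complement CACGT, or for Hspa1b the heat shock element GAANNTTC, in capitals.
Ero1a (chr14:45318573-45318822, minus strand): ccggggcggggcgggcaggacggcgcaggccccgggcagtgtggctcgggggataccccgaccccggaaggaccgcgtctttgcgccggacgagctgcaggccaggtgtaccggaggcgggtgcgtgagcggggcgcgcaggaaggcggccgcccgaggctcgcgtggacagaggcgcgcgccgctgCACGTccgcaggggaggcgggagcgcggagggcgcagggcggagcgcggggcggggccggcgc
Pfkfb3 (chr2:11553930-11554179, minus strand): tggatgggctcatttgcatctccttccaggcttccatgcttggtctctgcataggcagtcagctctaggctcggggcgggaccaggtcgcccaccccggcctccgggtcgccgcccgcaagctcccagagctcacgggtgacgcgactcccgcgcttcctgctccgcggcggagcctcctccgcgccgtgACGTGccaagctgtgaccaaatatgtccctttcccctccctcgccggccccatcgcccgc
P4ha1 (chr10:59323046-59323295, plus strand): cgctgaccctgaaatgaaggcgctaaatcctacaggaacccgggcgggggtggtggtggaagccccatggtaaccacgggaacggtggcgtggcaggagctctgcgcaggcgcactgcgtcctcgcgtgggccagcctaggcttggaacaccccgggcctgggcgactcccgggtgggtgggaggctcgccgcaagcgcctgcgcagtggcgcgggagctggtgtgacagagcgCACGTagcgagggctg
Hspa1b (chr17:34959239-34959488, minus strand): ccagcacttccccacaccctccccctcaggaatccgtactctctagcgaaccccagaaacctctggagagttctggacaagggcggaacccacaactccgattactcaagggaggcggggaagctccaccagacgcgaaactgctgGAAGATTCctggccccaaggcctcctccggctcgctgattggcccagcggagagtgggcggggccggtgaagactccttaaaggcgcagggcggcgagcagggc
The core ACGTG lay in 16 of 29 windows of the hypoxia and glycolysis list (55.2%), in 2086 of 9332 windows of genes tested under CBPi (22.4%) and in 16.6% of all 27025 windows. The median GC content of those windows was 62.8%, 59.6% and 52.0%. Of the 9 windows of members called in the interaction, 5 held the core (55.6%); those of Vegfa, Tpi1, Pfkl and Pfkp did not, and Ndrg1 had no window. The heat shock element lay in 6.78% of all windows and in 5.0% of windows of genes tested under CBPi. In the immediate-early and heat shock list it lay in 3 of 22 windows (13.6%). The core ACGTG lay in 8 of the 22 windows of that list (36.4%, median GC content 64.8%). Both motifs were picked after the lists were seen, and a match is a description of the letters, not of binding.

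Ero1a (chromosome 14, 45283087 to 45318572), an oxidoreductase of the endoplasmic reticulum, was at 102, 118, 91.4, 84.9 and 77.3 CPM in treated mMDSC and 1792, 1396, 650.3, 719.6 and 593 CPM in treated gMDSC. In the vehicle libraries it was at 68.0, 65.0, 64.1, 43.7 and 61.1 CPM in mMDSC and 109.7, 64.3, 146, 76.1 and 71.7 CPM in gMDSC. The treated gMDSC libraries were all above every other library, with libraries 6 and 7 highest. The lineage difference was 3.49 ± 0.31 (SE, n = 5 per group, adjusted p = 1.9e-06) under CBPi and 0.65 with vehicle (adjusted p = 0.058), an interaction of 2.81 ± 0.40 (SE, 20 libraries, adjusted p = 0.0015). Without libraries 6 and 7 the interaction was 2.16 (adjusted p = 0.0015).

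Pfkfb3 (chromosome 2, 11471430 to 11554071), which makes the activator of phosphofructokinase, was at 87.9, 119, 69.0, 85.0 and 92.5 CPM in treated mMDSC and 1979, 1467, 687, 795 and 666 CPM in treated gMDSC, and at 84.9 ± 11.6 and 203 ± 34.7 CPM (SD, n = 5) with vehicle. It was granulocytic in both arms, and its interaction was 2.37 ± 0.35 (SE, 20 libraries, adjusted p = 0.0027). P4ha1, a prolyl hydroxylase of collagen, was at 163, 209.8, 175, 198 and 164 CPM in treated mMDSC and 717, 623, 382, 435 and 325 CPM in treated gMDSC, without overlap, and its vehicle groups overlapped (interaction 1.69 ± 0.27, adjusted p = 0.0034).

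Hif1a (chromosome 12, 73901324 to 73947554), the oxygen-regulated factor of the hypoxia response and a member of the transcription factor list, was at 266, 338, 245, 290.1 and 307 CPM in treated mMDSC and 1745, 1348, 683, 731 and 627 CPM in treated gMDSC. With vehicle it was at 437, 297, 312, 291 and 373 CPM in mMDSC and 439, 379, 220.2, 451 and 376 CPM in gMDSC, and the groups overlapped. The lineage difference was 1.88 ± 0.26 (SE, n = 5 per group, adjusted p = 1.1e-04) under CBPi and 0.14 with vehicle (adjusted p = 0.67). Its interaction of 1.70 (adjusted p = 0.026) became 1.11 (adjusted p = 0.086) without libraries 6 and 7, and it was also lost without library 7 alone (adjusted p = 0.058).

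**Figure D4:**
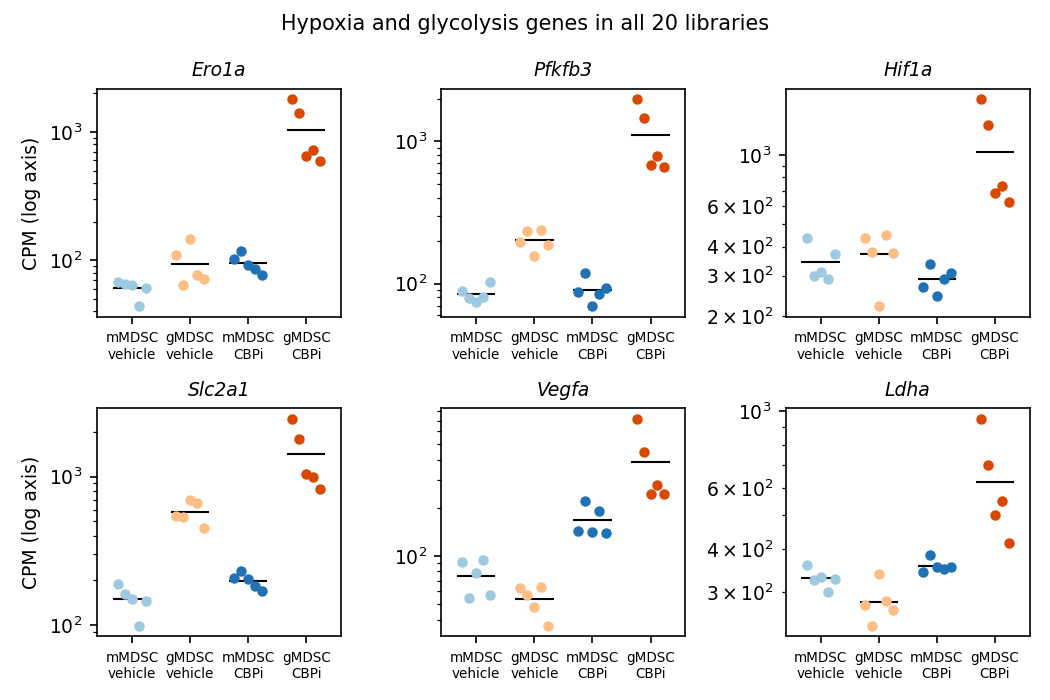
Level of 6 hypoxia and glycolysis genes in all 20 libraries, in CPM on a log axis, with 1 point per library in the order of its number and a bar at the mean of 5. The treated gMDSC libraries are the highest group in every panel, and the first pair of points in that group, libraries 6 and 7, is above the other 3.

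The glucose transporters were granulocytic in both arms. Slc2a1 (GLUT1) was at 208, 230.3, 203, 184 and 168 CPM in treated mMDSC and 2461, 1790, 1040, 999.7 and 827 CPM in treated gMDSC, and Slc2a3 (GLUT3) at 4.06 ± 1.96 CPM in mMDSC against 327 ± 167 in gMDSC. Their log2 differences were 2.89 and 6.37 under CBPi and 1.97 and 4.06 with vehicle, and neither passed the interaction (adjusted p = 0.29 and 0.15). Slc16a3, the lactate exporter MCT4, was at 190.2 ± 35.1 CPM in mMDSC against 1582 ± 541 in gMDSC (log2 difference 3.11 ± 0.22) and likewise did not pass it (adjusted p = 0.86). Other members were called higher in gMDSC under CBPi and not with vehicle. Ldha (lactate dehydrogenase A) was at 343, 385, 353, 349 and 355 CPM in treated mMDSC and 953, 701, 499.9, 549.5 and 417 CPM in treated gMDSC (log2 difference 0.86 against -0.21 with vehicle), and Tpi1 (triosephosphate isomerase) and Pfkl (liver phosphofructokinase) gave 0.74 against -0.49 and 1.45 against -0.13. Pfkp, the platelet-type phosphofructokinase, was called in opposite directions, 0.77 under CBPi and -0.79 with vehicle, and without gMDSC library 7 it was not called under CBPi. Vegfa, the angiogenic growth factor, was at 142, 222, 142, 191 and 139 CPM in treated mMDSC and 722, 446, 243, 277 and 243 CPM in treated gMDSC (log2 difference 1.26 against -0.47), and Bnip3, a mitophagy receptor, at 2.40 ± 0.530 CPM in mMDSC against 13.9 ± 5.04 in gMDSC (log2 difference 2.59 against 0.27). Adjusted p in the interaction was 0.039 for Ldha, 0.036 for Tpi1, 0.041 for Pfkl, 0.028 for Pfkp, 0.04 for Vegfa and 0.019 for Bnip3, and none of these 6 passed without gMDSC libraries 6 and 7. Leaving out 1 library at a time, the call was lost in 12 of 20 fits for Vegfa, 11 for Pfkl, 7 for Tpi1, 5 for Ldha, 2 for Pfkp and 1 for Bnip3. With the replicate number as a block the call was lost for Ldha, Tpi1, Pfkl, Vegfa and Bnip3 (adjusted p = 0.0538 to 0.0905), and by limma-voom for Ldha, Pfkl, Vegfa and Bnip3 (adjusted p = 0.0506 to 0.0928).

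The immediate-early and heat shock list held 6 heat shock genes, Hspa1a, Hspa1b, Hspa8, Hsp90aa1, Hsph1 and Dnajb1, which were set apart after their values were seen. All 6 were higher in gMDSC under CBPi and 4 passed the interaction, where all genes gave 20.1% and 0.725%. Dnajb1, an HSP40 co-chaperone, was called with vehicle too (log2 difference 1.36 under CBPi and 0.79 with vehicle, interaction adjusted p = 0.53), and Hsph1 did not pass the interaction either (adjusted p = 0.3). Hspa1b (chromosome 17, 34956429 to 34959238) and its near-identical neighbour Hspa1a encode the inducible chaperone HSP70. Reads may be shared between these copies, so their calls are not separate results. Hspa1b was at 60.1, 69.0, 62.5, 53.1 and 56.0 CPM in treated mMDSC and 1401, 835, 639, 592 and 322 CPM in treated gMDSC. With vehicle it was at 101, 80.1, 53.0, 27.1 and 27.6 CPM in mMDSC and 42.8, 56.1, 52.2, 45.9 and 40.4 CPM in gMDSC. Treated gMDSC stood above all other libraries, and the 2 vehicle groups overlapped. The interaction was 3.94 ± 0.49 (SE, 20 libraries, adjusted p = 4.0e-04) for Hspa1b and 3.96 (adjusted p = 2.6e-04) for Hspa1a, and without gMDSC libraries 6 and 7 it was 3.40 (adjusted p = 0.0011) for Hspa1b. Hsp90aa1 (inducible HSP90) and Hspa8 (constitutive HSC70) also passed the interaction (2.09 and 1.49, adjusted p = 0.033 and 0.0038), and without those libraries Hspa8 still passed (adjusted p = 0.03) and Hsp90aa1 did not (0.16). With the replicate block Hspa8 did not pass (adjusted p = 0.0572). The Hsp90aa1 interaction was also lost in 4 of 20 fits with 1 library left out. Of the 27 members of the immediate-early and heat shock list, 22 were higher and 1 lower under CBPi, and 18 and 1 of 26 tested with vehicle. All genes gave 20.1% and 19.1% under CBPi, and 13.6% and 8.08% with vehicle. Egr1, a zinc finger factor induced within minutes, was at 1674 ± 492 CPM in mMDSC against 9659 ± 4397 in gMDSC (log2 difference 2.58 against 3.03 with vehicle), and Nr4a2, an orphan nuclear receptor, was the lower member (log2 difference -1.91 ± 0.12).

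Other genes also had a larger gMDSC to mMDSC ratio under CBPi. Nos2, the inducible nitric oxide synthase, was at 9.28, 27.5, 14.4, 18.6 and 9.94 CPM in treated mMDSC and 177, 128, 72.0, 56.3 and 56.4 CPM in treated gMDSC, and at 29.3, 4.07, 7.88, 3.62 and 10.04 CPM and 1.5, 5.24, 4.01, 7.86 and 5.35 CPM in the same order with vehicle. The treated groups did not overlap and the vehicle groups did. The interaction was 3.81 ± 0.73 (SE, 20 libraries, adjusted p = 0.017), and 3.14 (adjusted p = 0.098) without gMDSC libraries 6 and 7. By limma-voom it was 3.41 (adjusted p = 0.083) and with the replicate block 3.33 (adjusted p = 0.125). Thbs1, the matrix protein thrombospondin 1, was monocytic with vehicle (log2 difference -2.47, adjusted p = 1.1e-04) and granulocytic under CBPi (log2 difference 1.28, adjusted p = 0.039). Its treated values were 249, 602, 135, 487 and 343 CPM in mMDSC and 1598, 1365, 477, 359 and 478 CPM in gMDSC, which overlap. The call under CBPi was lost in 5 of 10 fits with 1 library left out, those without mMDSC library 6, 8 or 10 or gMDSC library 6 or 7. Without both libraries 6 and 7 the difference under CBPi was 0.32 (adjusted p = 0.59), while the interaction still passed (2.77, adjusted p = 0.025). Fry, Dusp4 (a MAP kinase phosphatase) and Mapk6 (the atypical kinase ERK3) were also called in opposite directions, with 2.04, 0.98 and 0.68 under CBPi and -1.96, -2.23 and -1.10 with vehicle. None of these 3 was called under CBPi without libraries 6 and 7, and with 1 library left out at a time the call was lost in 3, 5 and 6 of 10 fits. Their interactions were not called without libraries 6 and 7 either (3.20, 2.66 and 1.29, adjusted p = 0.238, 0.143 and 0.108). The fit of all 20 libraries did not call Dusp4 or Mapk6 under CBPi (adjusted p = 0.120 and 0.0541), and limma-voom did not call Fry or Mapk6 (adjusted p = 0.0821 and 0.0520). The Fry interaction was lost in 13 of 20 fits with 1 library left out, by limma-voom (adjusted p = 0.211) and with thinning to equal depth (adjusted p = 0.0508), and that of Mapk6 with the replicate block (adjusted p = 0.0609). Lrrk2, a kinase of vesicle traffic, was at 6.06 ± 2.93 CPM in mMDSC against 42.5 ± 22.4 in gMDSC (log2 difference 2.86 against -0.39), and Mx2, an antiviral GTPase, at 178 ± 20.3 CPM in mMDSC against 636 ± 264 in gMDSC (log2 difference 1.89 against -0.16). Mx2 kept its interaction without those libraries (adjusted p = 0.011) and Lrrk2 did not (0.15), nor did Lrrk2 pass by limma-voom (adjusted p = 0.0573). Bcl2l11, which encodes the pro-apoptotic protein BIM, was higher in gMDSC by 2.501 on the log2 scale under CBPi and by 1.12 with vehicle, with an interaction of 1.34 (adjusted p = 0.017) that was lost with the replicate block (adjusted p = 0.0941).

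Other differences narrowed. F13a1 (chromosome 13, 36867178 to 37050244), coagulation factor XIII of monocytes and macrophages, was at 233, 417, 164, 323 and 328 CPM in treated mMDSC and 32.4, 34.9, 52.9, 12.7 and 15.5 CPM in treated gMDSC. With vehicle it was at 230.2, 301, 285, 168 and 370.4 CPM in mMDSC and 1.60, 3.38, 0.763, 4.42 and 4.38 CPM in gMDSC, so the gap was wider there. It was monocytic in both arms, -3.25 under CBPi and -6.47 with vehicle, with an interaction of 3.19 ± 0.55 (SE, 20 libraries, adjusted p = 0.0077) and of 3.06 (adjusted p = 0.036) without gMDSC libraries 6 and 7. The F13a1 interaction was lost by limma-voom (adjusted p = 0.103) and with the replicate block (adjusted p = 0.0501). Aldoc (aldolase C) and Dmkn (dermokine) followed the same course, -0.84 and -2.17 under CBPi against -4.49 and -5.51 with vehicle. Clec4n (chromosome 6, 123229843 to 123247024), the fungal receptor dectin-2, was at 252, 201, 409, 291 and 257 CPM in treated mMDSC and 263, 272, 289, 374 and 299 CPM in treated gMDSC, and at 248, 206, 229, 273 and 165 CPM and 1405, 786, 1300, 1349 and 649 CPM with vehicle. Its granulocytic excess with vehicle (log2 difference 2.30, adjusted p = 1.5e-05) was not called under CBPi (log2 difference 0.14 ± 0.18, adjusted p = 0.57), and the interaction was -2.20 ± 0.30 (SE, 20 libraries, adjusted p = 0.0015).

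Galnt12, which starts mucin-type O-glycans, Cxcl14, an epithelial-type chemokine, and Fam122a were likewise called with vehicle (log2 difference 2.65, 2.35 and 2.14) and not under CBPi (0.44, 0.28 and 0.13). Oscp1 went from 8.23 to 1.83, and Egr3, a factor of the EGR family, had an interaction of -3.55 (adjusted p = 0.034). Lrg1, a secreted leucine-rich glycoprotein, and Mmp9 stayed strongly granulocytic with a smaller ratio, 3.21 and 6.31 under CBPi against 5.32 and 8.18 with vehicle (interaction adjusted p = 0.015 and 0.014). The 2 genes differ in where the levels lay: mMDSC had 58.4 CPM of Lrg1 with vehicle and 98.3 under CBPi against 2316 and 876 in gMDSC, while Mmp9 was at 2.64 and 12.8 in mMDSC against 756 and 978 in gMDSC. Cd9, a tetraspanin, was also less granulocytic under CBPi (log2 difference 3.50 against 4.85). Cd36, the scavenger receptor, and Lpl (lipoprotein lipase) took another course. They were monocytic under CBPi and not called with vehicle (interactions -1.80 and -1.34). Without gMDSC libraries 6 and 7 the interaction was not called for Aldoc, Dmkn, Galnt12, Cxcl14, Egr3, Cd36 and Lpl (adjusted p from 0.083 for Aldoc to 0.16 for Galnt12), and Oscp1 was no longer called under CBPi. With 1 library left out at a time, the interaction call was lost in 16 of 20 fits for Cd9, 12 for Lpl, 11 for Egr3, 10 for Galnt12 and 9 for Dmkn. The Oscp1 lineage call under CBPi was lost in 4 of 10 such fits. By limma-voom the interaction was lost for Mmp9 (adjusted p = 0.0577), Cd9, Dmkn, Oscp1 and Egr3 (adjusted p = 0.0676 to 0.345 for those 4), and with the replicate block for Dmkn, Egr3 and Cxcl14 (adjusted p = 0.0572 to 0.0870). The Cd9 interaction was also lost with RLE scaling, and the fit of all 20 libraries did not call Aldoc under CBPi (adjusted p = 0.172).

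**Figure D5:**
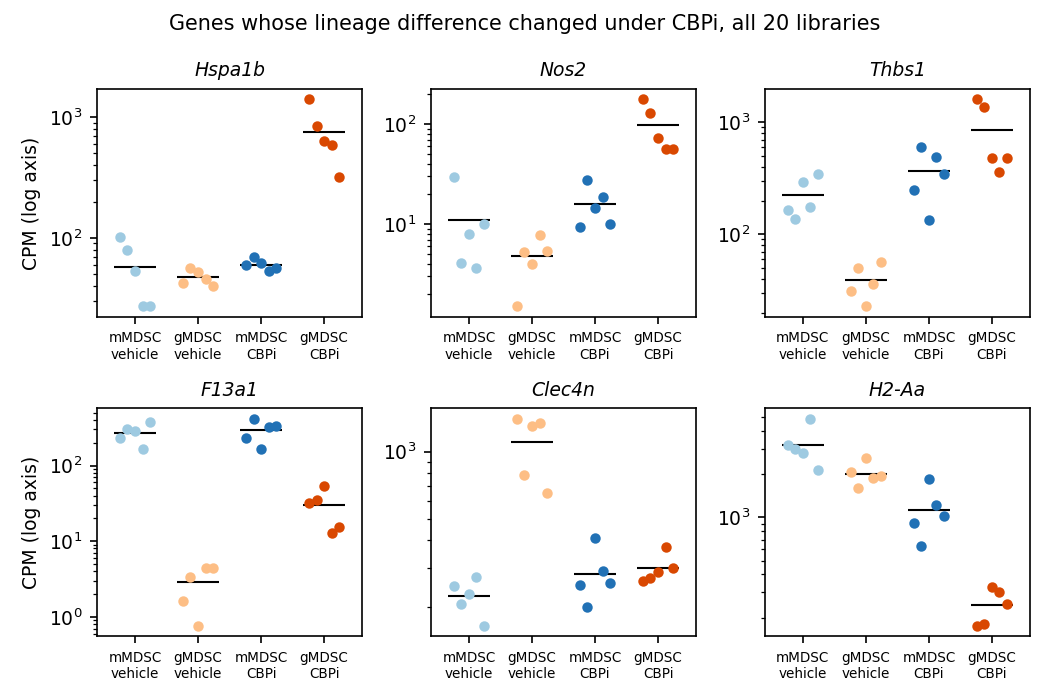
Level in all 20 libraries of 6 genes whose lineage difference was not the same in the 2 arms by the interaction test, in CPM on a log axis, with 1 point per library in the order of its number and a bar at the mean of 5. Hspa1b, Nos2 and Thbs1 have their highest mean in treated gMDSC, F13a1 is lowest in vehicle gMDSC, Clec4n is highest in vehicle gMDSC, and H2-Aa is lowest in treated gMDSC.

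Most class II antigen presentation genes were lower in gMDSC under CBPi. There 11 of 15 members were lower in gMDSC and none was higher by edgeR's adjusted p (0 at an unadjusted p under 0.05, 0 by DESeq2 and 0 by limma-voom). The median log2 difference was -1.41, and with vehicle 7 were lower (median -0.66), beside 19.1% of all genes lower under CBPi and 8.08% with vehicle. The change between the arms was tested only gene by gene. Ciita, the master activator of these genes, was at 24.9, 16.4, 42.2, 41.2 and 31.9 CPM in treated mMDSC and 4.66, 5.50, 9.98, 7.39 and 5.72 CPM in treated gMDSC (log2 difference -2.17 ± 0.29, adjusted p = 6.3e-05). H2-Ab1, a class II beta chain, was at 2212 ± 701 CPM in mMDSC against 531 ± 132 in gMDSC (log2 difference -2.002 ± 0.23). Cd74, the invariant chain, was at 7766, 5391, 14426, 9554 and 8196 CPM in treated mMDSC and 1562, 1749, 3114, 2709 and 2326 CPM in treated gMDSC, and at 23491 ± 6849 and 16693 ± 1840 CPM (SD, n = 5) with vehicle. Both treated groups lay below their vehicle group, gMDSC further. The interaction was called for Cd74 (-1.49, adjusted p = 0.036), H2-Eb1 (-1.54, 0.036) and H2-Aa (-1.52, 0.049) and, without gMDSC libraries 6 and 7, for none of the 15 members, where Cd74 had -1.24 (adjusted p = 0.16). With 1 library left out at a time it was lost in 13, 14 and 15 of 20 fits for Cd74, H2-Eb1 and H2-Aa, and for H2-Aa also with RLE or upper quartile scaling, no filter on low counts or limma-voom (adjusted p = 0.0503 to 0.0526). Dendritic cells also express these genes. Their summed markers were 4.04 to 8.28 CPM in treated gMDSC and 14.9 to 25.3 CPM in treated mMDSC. With vehicle they were 3.47 to 11.7 and 7.32 to 29.6 CPM. The macrophage sum in gMDSC was 15592 to 30576 CPM under CBPi and 32457 to 75065 CPM with vehicle. The part of either cell type in the result was not tested. Of 21 class I genes 9 were lower in gMDSC and none higher by edgeR (0 at an unadjusted p under 0.05, 1 by DESeq2 and 0 by limma-voom), with Psmb10, an immunoproteasome subunit, at 389 ± 8.43 CPM in mMDSC against 195 ± 32.7 in gMDSC (log2 difference -0.94 ± 0.13).

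The remaining lists describe growth, metabolism and the surface. Their counts stand beside 20.1% higher and 19.1% lower of all genes under CBPi, and 13.6% and 8.08% with vehicle. Of 36 cell cycle genes 22 were higher in gMDSC under CBPi and none lower by edgeR (0 at an unadjusted p under 0.05, 0 by DESeq2 and 0 by limma-voom), and 18 were higher with vehicle. The levels were low: Rrm2, a ribonucleotide reductase subunit, was at 6.11 ± 2.48 CPM in mMDSC against 25.8 ± 4.34 in gMDSC (log2 difference 2.13 ± 0.26) and Mki67, the proliferation antigen, at 10.8, 14.97, 38.3, 17.7 and 17.0 CPM in mMDSC and 27.9, 41.3, 36.9, 28.6 and 32.3 CPM in gMDSC. Without gMDSC libraries 6 and 7, 18 cell cycle genes were higher and Mki67 was not called (adjusted p = 0.11); its call was also lost in 7 of 10 fits with 1 library left out. Of 26 genes of MYC and ribosome biogenesis 11 were lower in gMDSC and 3 higher, and the higher ones included Mxd1, a MYC antagonist, at 200.4 ± 49.9 CPM in mMDSC against 3407 ± 1117 in gMDSC (log2 difference 4.14 ± 0.25). Of 24 cholesterol genes 8 were lower and 1 higher, with Nsdhl, an enzyme of cholesterol synthesis, at 30.1 ± 4.59 CPM in mMDSC against 15.8 ± 4.88 in gMDSC (log2 difference -0.88 ± 0.21, adjusted p = 0.0055). Of 29 lysosome genes 8 were higher and 9 lower, Ctsd (cathepsin D) among the higher (log2 difference 1.76 ± 0.17). Of 29 matrix and protease genes 13 were higher and 8 lower, and F3, the clotting initiator tissue factor, was at 19.96 ± 8.95 CPM in mMDSC against 273 ± 102 in gMDSC (log2 difference 3.83 ± 0.35). Of 23 adhesion genes 13 were higher and 2 lower, with Selplg, the selectin ligand PSGL-1, at 319 ± 8.05 CPM in mMDSC against 749 ± 88.5 in gMDSC (log2 difference 1.29 ± 0.11). The NADPH oxidase list was even, with 5 of 14 higher and 5 lower, and of 26 genes of histone acetylation and BET proteins 8 were higher and 2 lower.

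Markers of other cells were present at unequal levels in the treated libraries. Over 5 markers each, lymphocyte and NK cell markers were at 0.809 to 4.52 CPM in gMDSC and 2.12 to 8.92 CPM in mMDSC, and mast cell, basophil and eosinophil markers at 15.5 to 21.9 and 0.0310 to 1.22 CPM, where Siglecf made up most of the gMDSC value and 3 of the 5 markers were at 0 in all 5 gMDSC libraries. Siglecf, a sialic acid receptor of eosinophils that some tumour neutrophils also carry, was at 0.340 ± 0.425 CPM in mMDSC against 17.2 ± 2.67 in gMDSC (log2 difference 5.68, adjusted p = 4.0e-05). Markers of stroma and endothelium were at 103 to 309 CPM in gMDSC and 129 to 321 CPM in mMDSC, of epithelium at 6.01 to 11.4 and 3.49 to 11.5 CPM, and of red cells and platelets at 45.8 to 62.8 and 81.3 to 261 CPM. Of the 5 red cell and platelet markers, 4 had a mean under 1 CPM in gMDSC and 3 in mMDSC, so few genes carry those sums. Of 23 macrophage genes 5 were higher in gMDSC and 6 lower, beside 20.1% and 19.1% of all genes. Fcrls, a receptor-like gene of resident macrophages, was at 18.7 ± 5.87 CPM in mMDSC against 84.4 ± 21.5 in gMDSC (log2 difference 2.23 ± 0.24), and Msr1, a scavenger receptor, at 617 ± 47.5 CPM in mMDSC against 279 ± 39.4 in gMDSC (log2 difference -1.09 ± 0.13). Apoe was at 14363, 12652, 13985, 15951 and 16110 CPM in mMDSC and 9453, 10582, 15981, 18987 and 17424 CPM in gMDSC, which overlap, with the lowest gMDSC values in libraries 6 and 7.

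Some values rest on genes whose reads may be shared. The spans of Plcb1, Gm15056, Cebpd, Tlr6, Ifit3b, Cd274, Slc16a3, Ciita, Bcl2l1, Bcl2l11, Fam122a, Ccna2 and Pfkp overlap another annotated gene, and whether strand was used in counting is not given in the sources used here. Ly6c1 and Ly6c2, Hspa1a and Hspa1b, the Ifna genes, the stefin genes and Mrgpra2b have near-identical copies, and a split of their reads between copies is uncertain.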

How the data were processed

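RNA sequencing libraries of poly-A RNA (Illumina TruSeq V2) were available for 20 sorted samples. Each deposited file held, for 23090 genes by Entrez ID, a count and an RPKM value made by the authors; GSNAP and GRCm38 are named in the submitters' processing notes, and the counter and strand setting were not given in the sources used here. The deposited RPKM values were not used for tests. Symbols and positions came from a RefSeq table (GRCm38.p6), which matched 21647 IDs. Groups were taken from the labels for cell type and treatment.

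Lineages were compared with edgeR 4.0.16 in R 4.3.3 (filterByExpr defaults, TMM, glmQLFit and glmQLFTest, Benjamini-Hochberg over all genes tested, called at adjusted p under 0.05), separately in the 10 CBPi and the 10 vehicle libraries, and the interaction in all 20. The standard error is the log2 difference divided by the square root of F. The fits were tested on simulated data. Alternatives were RLE and upper quartile scaling, DESeq2 1.42.0, limma-voom (limma 3.58.1), other filters, thinning to equal depth, a replicate block, a fit of all 20 libraries, a 2-fold threshold and each library left out. The smallest library has 12.4 mega counts, and counting error limits genes with few counts.

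Members and lists were chosen with earlier results of these data known. Genes named are the 10 leading in each direction with at least 10 CPM in a group, up to 2 per list by p, a fixed set of lineage and target genes, the 8 leading in each direction of the interaction and 5 called in opposite directions; further list members, and Cd36, Lpl and Apoe, were named after their values were seen. Lists are described by counts and medians, with no test of a list. Of the gene names in the 39 lists, 2 matched no ID. Some named members are not reported here.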

Additional observations from a re-analysis of the deposited data

Results flagged for a closer look

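In 27 of 342 groups of 5 treated values (7.89%), counted over the genes named here, 1 library lay apart from the other 4 by Dixon's test at the 95% level; chance flags about 1 in 20. Treated gMDSC library 10 was flagged for Elane at 0.0481 CPM, which is 1 count, as the other 4 libraries of its group were at 0. Treated gMDSC library 6 was far above the other 4 libraries of its group for Prok2 at 32.3, Myo1d at 49.1, Cd14 at 29702, Clec4d at 906, Sirt1 at 60.3, Hdac1 at 66.8, Ly6g at 2.14, Dmkn at 6.73 and Klf4 at 97.3 CPM. Treated gMDSC library 8 was far above the other 4 libraries of its group for Gm15056 at 8.13 and Cxcl9 at 19.8 CPM. Treated gMDSC library 9 was far above the other 4 libraries of its group for Galnt12 at 35.6 CPM. Treated mMDSC library 10 was far above the other 4 libraries of its group for Cstdc4 at 0.652, Elane at 4.04, Lcn2 at 13.9 and Mpo at 17.8 CPM. Treated mMDSC library 6 was far above the other 4 libraries of its group for Arg1 at 71.1, Clec4d at 73.5, Ccr3 at 2.82 and Dmkn at 17.9 CPM, and far below them for Ptgs2 at 486 CPM. Treated mMDSC library 8 was far above the other 4 libraries of its group for Csta3 at 0.219, Cx3cr1 at 138, Cxcr1 at 0.0437, Cxcl9 at 82.3 and Mki67 at 38.3 CPM. For Csta3 and Cxcr1 the other 4 libraries were at 0, and Csta3 had 5 counts in all in treated mMDSC. Flags at such low counts are among the 27.

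The lineage difference under CBPi differed from that with vehicle, by the interaction test at an adjusted p under 0.05, for 43 of the genes named here. On the log2 scale the difference of the differences was above 0 for Fry 3.99, Hspa1a 3.96, Hspa1b 3.94, Nos2 3.81, Thbs1 3.73, Aldoc 3.66, Dmkn 3.32, Lrrk2 3.21, F13a1 3.19, Dusp4 3.19, Ero1a 2.81, Pfkfb3 2.37, Bnip3 2.29, Hsp90aa1 2.09, Mx2 2.00, Mapk6 1.74, Hif1a 1.70, Vegfa 1.69, P4ha1 1.69, Ndrg1 1.58, Hmox1 1.56, Pfkl 1.56, Pfkp 1.53, Hspa8 1.49, Bcl2l11 1.34, Nr1h3 1.32, Tpi1 1.20, Cd300e 1.09 and Ldha 1.03. It was below 0 for Oscp1 -6.47, Egr3 -3.55, Galnt12 -2.24, Clec4n -2.20, Lrg1 -2.15, Cxcl14 -2.10, Fam122a -2.07, Mmp9 -1.91, Cd36 -1.80, H2-Eb1 -1.54, H2-Aa -1.52, Cd74 -1.49, Cd9 -1.39 and Lpl -1.34. Without gMDSC libraries 6 and 7, 18 of the 43 still passed and 25 did not, Hmox1 and Cd300e among them.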

How the results depend on the processing

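Each count below is compared with 2396 genes higher and 2270 lower in gMDSC under CBPi, 1579 and 935 with vehicle, 2045 held, and 63 and 29 in the interaction. Counts stayed within 1.5 times these values under RLE or upper quartile scaling, no filter on low counts, a filter of 5 CPM in 5 libraries and thinning to equal depth. DESeq2 called 184 and 93 genes in the interaction, and limma-voom called 17 lower. A 2-fold threshold (glmTreat) left 657 higher and 141 lower under CBPi, 537 and 138 with vehicle, and 470 held. The fit of all 20 libraries called 1519 genes lower with vehicle. With the replicate number as a block the interaction gave 33 and 19 genes, and the lineage counts were 2360 and 2221 under CBPi; same-numbered libraries correlated at -0.0305 to 0.230 under CBPi and -0.108 to 0.326 with vehicle in their deviations, over 0.1 in 1 and 2 of 5 pairs, and correlated best with their own number in 2 and 1 of 5 pairs, so the numbers were not treated as pairs. Leaving out each library in turn gave 2126 to 2381 genes higher, 1938 to 2281 lower under CBPi, 1351 to 1749 higher, 676 to 1521 lower with vehicle, 1707 to 2567 held, 23 to 85 higher and 10 to 32 lower in the interaction. Vehicle gMDSC library 3 gave the highest vehicle count of lower genes, and gMDSC library 7 the lowest interaction count of higher genes. Leaving out gMDSC libraries 6 and 7 together, chosen after seeing the data, gave 1509 lower genes under CBPi and 18 higher and 18 lower in the interaction, and 66.9% of the 4666 CBPi calls were called again; fewer samples were fitted. Of 2590 values of named genes with 1 library left out, 247 lost their call, and no called gene named here reversed its sign in any alternative run. Depth limits genes with few counts, such as Ly6g, Elane and Cxcr1, whose size of difference cannot be given. No line of tumour or mouse could be assigned to a library, so neither could enter a fit.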
